A study of Mus musculus with 11 samples.

Results

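Transcript levels of 8 genes used to recognise neutrophils and related myeloid cells in the mouse were followed through an order-of-mutation experiment. The genes were Ly6g, Ly6c1, Ly6c2, Ly6e, Cd177, Ceacam1, Ceacam10 and Pglyrp1, chosen by name for their place in the Ly6 family or among neutrophil markers, and they are 8 of the 51912 genes in the count table. RNA-seq covered 11 samples of retrovirally transduced, lineage-negative C57BL/6 mouse bone marrow. All cells carried a constitutive vector marked by GFP and a second vector marked by a red protein, which Cre recombinase switches on. In CSF3R-only (n = 4) the constitutive vector held CSF3R T618I, an activating mutant of the G-CSF receptor, and the inducible vector was empty. In CSF3R-first (n = 3) the constitutive vector held CSF3R T618I and the inducible one CEBPA V314VW, a C-terminal mutant of the myeloid transcription factor CEBPA. In CEBPA-first (n = 4) the same mutants were carried the other way round. Donors for transduction were 6 to 12 weeks old, and double-positive cells were sorted before 48 h of culture without cytokines in 500 nM 4-hydroxytamoxifen (4-OHT), which activates Cre. For the inducible vector, the study took marrow from Rosa26 ERT2-Cre donors, in which a tamoxifen-dependent Cre is expressed from the Rosa26 locus, and the labels give the strain alone. Every group therefore carried CSF3R T618I, received 4-OHT and expressed its vectors from a retrovirus, and no group lacked a mutant.

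Ly6 proteins are small, mostly glycosylphosphatidylinositol (GPI)-anchored surface proteins. The antibody known as Gr-1 binds Ly6G, a protein largely restricted to granulocytes in the mouse, and also Ly6C, which is abundant on inflammatory monocytes and present at lower levels on granulocytes. CD177 is a GPI-anchored Ly6/uPAR-type protein of neutrophils whose human form binds PECAM1 and holds proteinase 3 at the cell surface. CEACAM1 is an adhesion receptor with inhibitory signalling motifs, and CEACAM10 is a related mouse protein without a membrane anchor. PGLYRP1 is a peptidoglycan-binding protein of neutrophil granules. CEACAM10 and PGLYRP1 are thus secreted rather than surface proteins. Commercial mouse lineage cocktails, of the kind used for the sort, contain the Gr-1 antibody and an antibody to CD11b. With such a cocktail, cells are gated for low Gr-1 before the culture, and RNA was taken after it. The part of that gate in the levels below was not tested.

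Total counts were 47905747 to 72268346 per library, and all 8 genes were counted in all 11 libraries and passed the filter on low counts, which left 15703 genes. Levels are normalised read counts (CPM, a gene's count scaled to the library's size), and where 3 group values stand in a row they are mean ± SD for CSF3R-only, then CSF3R-first, then CEBPA-first. Mouse Cebpa was at 87.2 ± 6.98, 131 ± 10.4 and 167 ± 6.12 CPM, and Csf3r was at 846 ± 94.9, 516 ± 118 and 154 ± 16.1 CPM. The study measured its vector transcripts as human CEBPA and CSF3R, whereas these counts are of mouse genes. The table does not separate any reads of a vector from those of the endogenous gene, so these values do not check the labels. The study's methods name female mice in general, whereas Y-linked Ddx3y was at 69.8 to 79.9 CPM in every library and Xist had 0 to 4 counts. CSF3R-first replicate A was the highest of its group for all 8 genes, and values without it are given where they change a call or a direction. A change in a bulk sample cannot separate fewer expressing cells from less RNA per cell.

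The 8 genes lie on 2 chromosomes (GRCm38). Ly6e (chr15:74955051-74959905), Ly6c1 (chr15:75044018-75048830), Ly6c2 (chr15:75108158-75111970) and Ly6g (chr15:75155240-75159126) belong to the Ly6 cluster of chromosome 15, where 43.3 kb separate Ly6c2 from Ly6g. Pglyrp1 (chr7:18871331-18890459), Cd177 (chr7:24743983-24760311), Ceacam10 (chr7:24777206-24784657) and Ceacam1 (chr7:25461707-25477603) lie on chromosome 7, and Cd177 is 16.9 kb from Ceacam10. No exon of the 8 genes overlaps an exon of another gene. Stretches of at least 100 bp at 97% identity to Ly6c2 cover 97.7% of the longest Ly6c1 transcript, and such stretches to Ly6c1 cover 38.9% of that of Ly6c2. How such reads were counted is not given in the sources used here, so reads from the shared stretches may have been counted on either gene or left out. Both leave the Ly6c1 values uncertain, and reads left out would also lower Ly6c2. The other 6 genes had no such match.

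RefSeq promoters (GRCm38.p6) were matched for 7 of the 8 genes, all but Ly6e. Ly6g, Ly6c1, Ly6c2 and Ceacam10 each had 2 promoters listed. For each gene only the promoter nearest an annotated transcript start was searched, so a match in the other would be missed. The 250 bases upstream of the start are printed for 6 of them, in the order Ly6g and Ly6c2 (neighbours with different changes), Cd177, Ceacam1 and Ceacam10 (near copies with different sizes of change) and Pglyrp1. Each is written 5′ to 3′ on the gene's strand. Capitals mark matches, on either strand, to letters found in sites of C/EBP factors (TTGCNNAA), GATA factors (AGATAA), PU.1 (GAGGAA) or STAT factors (TTCNNNGAA).

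Ly6g (chr15:75155011-75155260, plus strand): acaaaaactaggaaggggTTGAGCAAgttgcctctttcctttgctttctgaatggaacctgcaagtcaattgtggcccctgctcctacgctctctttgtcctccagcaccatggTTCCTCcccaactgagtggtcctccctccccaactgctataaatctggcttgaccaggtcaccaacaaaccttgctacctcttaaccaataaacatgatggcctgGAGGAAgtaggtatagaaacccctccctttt

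Ly6c2 (chr15:75111938-75112187, minus strand): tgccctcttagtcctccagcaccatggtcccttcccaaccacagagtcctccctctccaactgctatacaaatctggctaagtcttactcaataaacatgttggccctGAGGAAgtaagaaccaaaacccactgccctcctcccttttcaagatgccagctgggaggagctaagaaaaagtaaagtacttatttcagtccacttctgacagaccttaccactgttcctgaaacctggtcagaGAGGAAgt

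Cd177 (chr7:24760312-24760561, minus strand): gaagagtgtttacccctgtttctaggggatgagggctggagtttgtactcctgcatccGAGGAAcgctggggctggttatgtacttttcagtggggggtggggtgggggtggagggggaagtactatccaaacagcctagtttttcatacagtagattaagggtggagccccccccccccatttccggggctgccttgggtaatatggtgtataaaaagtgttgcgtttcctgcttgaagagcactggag

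Ceacam1 (chr7:25477626-25477875, minus strand): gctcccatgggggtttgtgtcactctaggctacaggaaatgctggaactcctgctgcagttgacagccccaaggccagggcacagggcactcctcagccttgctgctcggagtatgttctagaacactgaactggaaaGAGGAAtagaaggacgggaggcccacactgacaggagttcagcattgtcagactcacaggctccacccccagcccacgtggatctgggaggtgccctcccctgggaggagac

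Ceacam10 (chr7:24776954-24777203, plus strand): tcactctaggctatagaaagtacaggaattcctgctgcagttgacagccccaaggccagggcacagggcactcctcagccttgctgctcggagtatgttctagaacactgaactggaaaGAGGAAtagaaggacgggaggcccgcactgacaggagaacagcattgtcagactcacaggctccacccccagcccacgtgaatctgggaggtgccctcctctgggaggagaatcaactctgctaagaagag

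Pglyrp1 (chr7:18884440-18884689, plus strand): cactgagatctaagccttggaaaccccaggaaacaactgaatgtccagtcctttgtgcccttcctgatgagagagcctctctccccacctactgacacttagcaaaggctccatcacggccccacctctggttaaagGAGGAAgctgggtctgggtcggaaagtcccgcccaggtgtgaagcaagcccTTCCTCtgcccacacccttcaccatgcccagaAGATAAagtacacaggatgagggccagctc

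Among the 7 promoters searched, the C/EBP letters matched in that of Ly6g alone, on the minus strand from position -232 relative to the start. They occur in 10.8% of 32851 promoter windows of 300 bases (250 before the start and 50 after it). The PU.1 letters matched at least once in all 7, against 28.3% of all windows. Ly6g, Ly6c1, Ly6c2 and Pglyrp1 had 2 matches each, and Cd177, Ceacam1 and Ceacam10 had 1 each. The GATA letters matched in Pglyrp1 alone, at -30 (11.2% of windows), and the STAT letters in none of the 7 (8.3% of windows). No match overlapped one to another motif. The Ceacam1 and Ceacam10 upstream sequences were identical at 94.8% of 231 aligned bases, and those of Ly6g and Ly6c2 at 81.3% of 139. These matches describe the printed letters and are not evidence that a factor is bound there.

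Levels were compared between genes per kilobase of annotated exon. In CSF3R-only the order was Ly6e (405 ± 32.1 CPM per kb, SD), Cd177 (199.9 ± 44.8), Pglyrp1 (173 ± 14.8), Ly6c2 (85.2 ± 9.57), Ly6g (48.6 ± 3.61), Ceacam1 (22.3 ± 3.83), Ceacam10 (13.2 ± 2.9) and Ly6c1 (0.108 ± 0.0487). Cd177 and Pglyrp1 were within their spread, and no other neighbours in that order were. In CEBPA-first, Ly6e (304 ± 16.4 CPM per kb) and Ly6c2 (106 ± 10.5) led, and Cd177 (30.9 ± 5.04), Pglyrp1 (15.9 ± 1.86), Ceacam1 (5.67 ± 0.463), Ly6g (3.87 ± 0.945), Ceacam10 (0.561 ± 0.11) and Ly6c1 (0.221 ± 0.0391) followed. Ly6c2 thus stood below Cd177 and Pglyrp1 in CSF3R-only and above both in CEBPA-first.

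**Figure D1:**
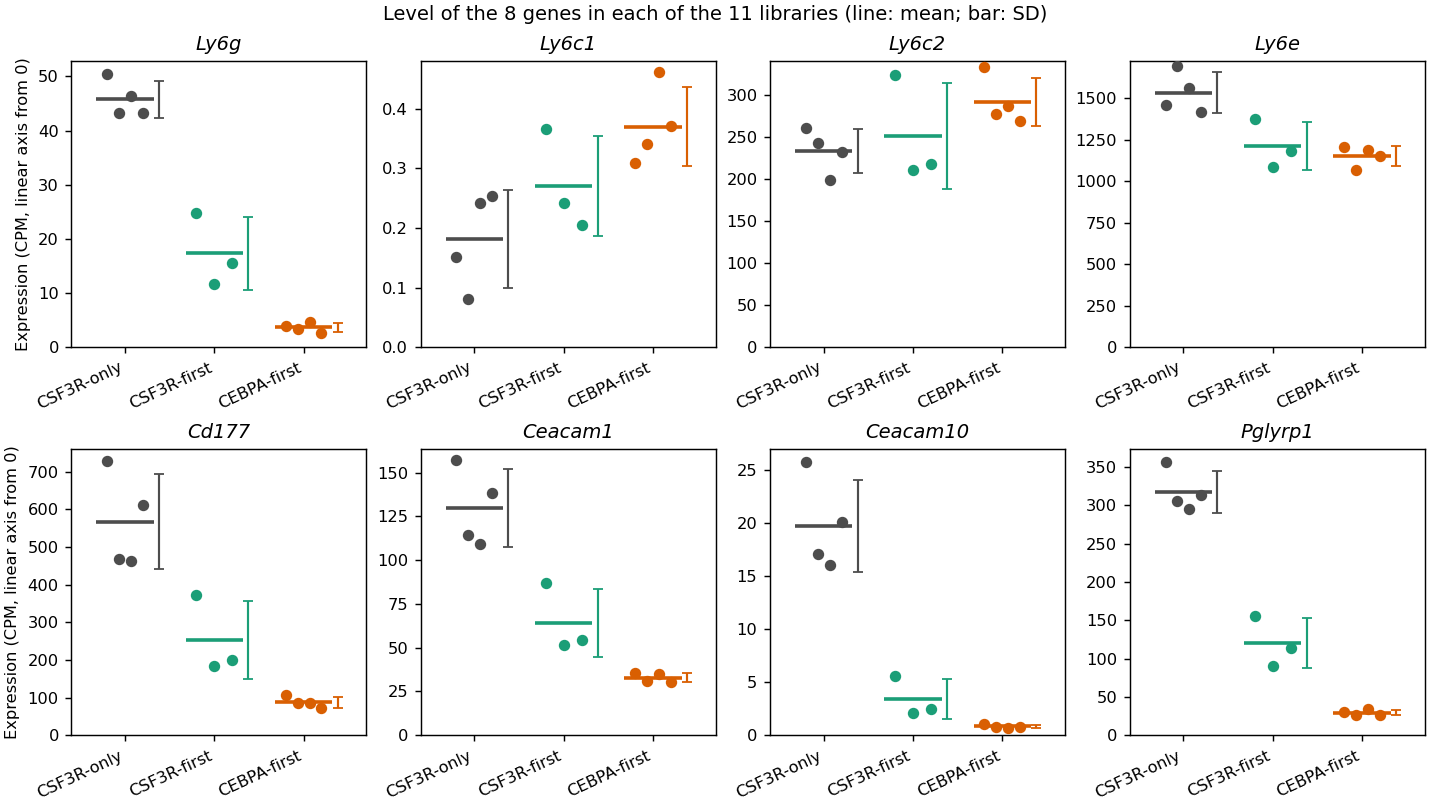
Each panel plots 1 gene, with TMM-normalized CPM on a linear axis from 0 and 1 point per library, from left to right for 4 CSF3R-only, then 3 CSF3R-first, then 4 CEBPA-first libraries. Horizontal lines are group means and bars are SD. Ly6g, Cd177, Ceacam1, Ceacam10 and Pglyrp1 step down across the groups with no overlap between neighbouring groups, whereas Ly6c2 keeps to between 199 and 333 CPM in all 11 libraries.

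The comparison of CEBPA-first with CSF3R-only asked how the markers differ when mutant CEBPA precedes mutant CSF3R, against mutant CSF3R with an empty second vector. Ly6g, Cd177, Ceacam1, Ceacam10 and Pglyrp1 were lower in CEBPA-first by 3.94-fold to 23.5-fold, Ly6e was lower by 1.33-fold, and Ly6c1 and Ly6c2 were higher by 1.99-fold and 1.25-fold. A gene was called changed at an adjusted p under 0.05 with at least a 2-fold change. By this rule 5 of the 8 genes were called lower and 0 higher, where 19.0% of all tested genes were called lower and 8.07% higher. All 8 passed the adjusted p alone, against 72.0% of tested genes, and all 8 had groups that did not overlap, against 68.7%. Their median log2 fold change was -2.34, against 0 over all tested genes.

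Ly6g, the granulocyte antigen of the Ly6 cluster, was at 50.5, 43.3, 46.3 and 43.2 CPM in CSF3R-only replicates A to D and at 3.95, 3.32, 4.7 and 2.62 CPM in CEBPA-first replicates A to D. The lowest CSF3R-only library was thus far above the highest CEBPA-first library, and Ly6g fell by 3.66 on the log2 scale (SE 0.22, edgeR adjusted p = 2.2e-08), which is 12.6-fold. Pglyrp1 was at 357, 306, 295 and 313 CPM in CSF3R-only and at 29.9, 26.7, 33.8 and 26.5 CPM in CEBPA-first. The libraries of each group lay close together, and this granule protein transcript fell by 3.44 (SE 0.15, edgeR adjusted p = 1.4e-09), or 10.9-fold.

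Cd177 was at 728, 467, 463 and 612 CPM in CSF3R-only and at 107, 86.1, 85.7 and 72.4 CPM in CEBPA-first. CSF3R-only replicates A and D were above B and C, and all 4 stood above CEBPA-first, and Cd177 fell by 2.69 (SE 0.23, edgeR adjusted p = 3.3e-07). Ceacam1 was at 157, 114, 109 and 138 CPM in CSF3R-only and at 35.6, 31, 34.9 and 30.2 CPM in CEBPA-first. Replicates A and D of CSF3R-only were again the higher pair, and the adhesion receptor transcript fell by 1.98 (SE 0.16, edgeR adjusted p = 2.6e-07), the smallest of the 5 called falls. Ceacam10 was at 25.7, 17.1, 16.1 and 20.1 CPM in CSF3R-only and at 1.08, 0.801, 0.71 and 0.766 CPM in CEBPA-first, where it had 37 to 63 counts per library. It fell by 4.55 (SE 0.3, edgeR adjusted p = 4.1e-08), the largest change of the 8, with a 95% interval of -5.2 to -3.91, whereas that of Ceacam1, whose upstream sequence is nearly the same, was -2.33 to -1.63.

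Ly6e, the Ly6 family member of widest expression, was at 1458, 1691, 1560.1 and 1418 CPM in CSF3R-only and at 1205, 1064, 1184 and 1152 CPM in CEBPA-first. Every CEBPA-first library was below every CSF3R-only library, but Ly6e fell by only 0.41 (SE 0.09, edgeR adjusted p = 0.00076), well under 2-fold. Ly6c2, which encodes the main Ly6C of monocytes, was at 261, 243, 199 and 232 CPM in CSF3R-only and at 333, 277, 286 and 269 CPM in CEBPA-first. The groups came within a few CPM of each other, and the log2 fold change was 0.32 (SE 0.13, 95% interval 0.03 to 0.6, edgeR adjusted p = 0.043). That p passed the threshold in 12 of 18 alternative analyses, in which it ranged from 0.0036 to 0.13. The misses came without CSF3R-only replicate B, C or D or CEBPA-first replicate A, B or C. Of the samples compared, leaving out only CSF3R-only replicate A or CEBPA-first replicate D kept the p under the threshold. The 12 also include fits without a CSF3R-first sample, which is in neither group compared, and the sum with Ly6c1, which adds few counts.

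Ly6c1, the near copy of Ly6c2, had 7, 4, 12 and 16 counts in CSF3R-only (0.151, 0.0801, 0.242 and 0.253 CPM) and 18, 20, 24 and 29 counts in CEBPA-first (0.308, 0.341, 0.461 and 0.37 CPM). Few counts were thus assigned to it in any group, at most 0.161% of the Ly6c1 and Ly6c2 counts of a library. Since nearly all of its transcript matches Ly6c2, a low count says little about its level if shared reads were left out. The log2 fold change was 1 after rounding (SE 0.35, edgeR adjusted p = 0.02), just under the 2-fold limit, and some alternatives put it above. Over the 17 alternatives the adjusted p was 0.014 to 0.054, and it missed the threshold without CEBPA-first replicate C. The log2 ratio of Ly6c1 to Ly6c2 counts, with 1 count added to each, was higher by 0.71 in CEBPA-first than in CSF3R-only (exact permutation p = 0.171, adjusted over 3 comparisons 0.371, two-sided). With so few Ly6c1 counts its size depended on the count added, at 0.77 with 0.5 added and 0.41 with 5 added, and it was 0.39 without CSF3R-only replicate B. The ratio differed by 0.51 between CSF3R-first and CSF3R-only (exact p = 0.371, adjusted 0.371) and by 0.2 between CEBPA-first and CSF3R-first (exact p = 0.343, adjusted 0.371), where the smallest p these designs allow is 0.0286.

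The comparison of CSF3R-first with CSF3R-only asked how the markers differ when mutant CEBPA is switched on in cells that already express mutant CSF3R. The same 5 genes were lower, by 2.02-fold to 5.81-fold, and again 5 were called lower and 0 higher, where 4.53% of tested genes were called lower and 2.13% higher. Of the 8, 6 passed the adjusted p alone (42.7% of tested genes) and 6 had groups that did not overlap (42.1%). The median log2 fold change of the 8 was -1.09, against -0.02 over all tested genes.

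Ly6g was at 24.8, 11.7 and 15.5 CPM in CSF3R-first replicates A, B and C. All 3 were below the CSF3R-only libraries, and Ly6g fell by 1.4 (SE 0.22, edgeR adjusted p = 0.00046). Pglyrp1 was at 155, 91 and 114 CPM, also below all of CSF3R-only, and it fell by 1.4 (SE 0.15, edgeR adjusted p = 3.9e-05). Ceacam10 was at 5.62, 2.13 and 2.5 CPM, and replicate A was the highest of its group by a wide margin. Ceacam10 fell by 2.54 (SE 0.29, edgeR adjusted p = 5.9e-05), the largest fall of the 8 here too.

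Cd177 was at 372, 184 and 201 CPM in CSF3R-first and fell by 1.17 (SE 0.24, edgeR adjusted p = 0.0021). Ceacam1 was at 86.8, 51.7 and 54.2 CPM and fell by 1.01 (SE 0.17, edgeR adjusted p = 0.00076). Both falls lay near the 2-fold limit. Without CSF3R-first replicate B, the log2 fold change was -0.99 for Cd177 and -0.88 for Ceacam1, which left 3 of the 8 genes called. Ceacam1 was also under 2-fold without CSF3R-first replicate C (-0.89), CSF3R-only replicate A (-0.91) or CSF3R-only replicate D (-0.98), with no filter on low counts (-0.96) and with only the 2 groups in the fit (-1 after rounding). It stayed past the adjusted p threshold in all 17 alternatives (largest edgeR adjusted p = 0.005).

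Ly6e was at 1371, 1085 and 1179 CPM in CSF3R-first, below all 4 CSF3R-only libraries. It fell by 0.34 (SE 0.09, edgeR adjusted p = 0.011), and without CSF3R-first replicate B the log2 fold change was -0.26 (edgeR adjusted p = 0.064, with a range of 0.0012 to 0.064 over 17 alternatives). Ly6c2 was at 324, 211 and 218 CPM. Replicate A was above every CSF3R-only library and replicates B and C were within their range, so the log2 fold change was 0.1 (95% interval -0.2 to 0.41, edgeR adjusted p = 0.59) and turned to -0.12 without replicate A. Ly6c1 had 18, 12 and 13 counts (0.365, 0.241 and 0.205 CPM), and its log2 fold change was 0.54 (95% interval -0.3 to 1.38, edgeR adjusted p = 0.29).

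The comparison of CEBPA-first with CSF3R-first set the 2 orders of the same pair of mutants against each other. Ly6g, Cd177, Ceacam10 and Pglyrp1 were lower in CEBPA-first by 2.88-fold to 4.78-fold, and Ceacam1 by 1.95-fold. By the call rule 4 of the 8 genes were lower and 0 higher, where 10.3% of tested genes were called lower and 2.57% higher. The adjusted p alone was passed by 5 (48.3% of tested genes), and 5 had groups that did not overlap (52.2%). The median log2 fold change of the 8 was -1.24, against 0 over all tested genes. This comparison shares the samples of each of its groups with one of the comparisons above.

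Ly6g fell by 2.26 between the orders (SE 0.23, edgeR adjusted p = 9.7e-06), the largest of the 8, so that the lowest CSF3R-first library (11.7 CPM) stood above the highest CEBPA-first library (4.7 CPM). Pglyrp1 fell by 2.04 (SE 0.15, edgeR adjusted p = 8.2e-07) and Ceacam10 by 2.02 (SE 0.32, edgeR adjusted p = 0.0003). Their group ranges were likewise apart, at 91 to 155 against 26.5 to 33.8 CPM for Pglyrp1 and 2.13 to 5.62 against 0.71 to 1.08 CPM for Ceacam10. Cd177 fell by 1.52 (SE 0.23, edgeR adjusted p = 0.00024) and Ceacam1 by 0.96 (SE 0.17, edgeR adjusted p = 0.00066).

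The Ceacam1 difference lay at the 2-fold limit and was called without CSF3R-first replicate B (-1.09), CSF3R-first replicate C (-1.08) or CEBPA-first replicate A. Ly6e was at -0.07 (95% interval -0.27 to 0.13, edgeR adjusted p = 0.54) and turned to 0.03 without CSF3R-first replicate A. Ly6c2 was at 0.22 (95% interval -0.09 to 0.52, edgeR adjusted p = 0.23). Without CSF3R-first replicate A it was at 0.45 (edgeR adjusted p = 0.0063), and over 18 alternatives its adjusted p was 0.0063 to 0.59. Ly6c1 was at 0.46 (95% interval -0.32 to 1.24, edgeR adjusted p = 0.32).

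**Figure D2:**
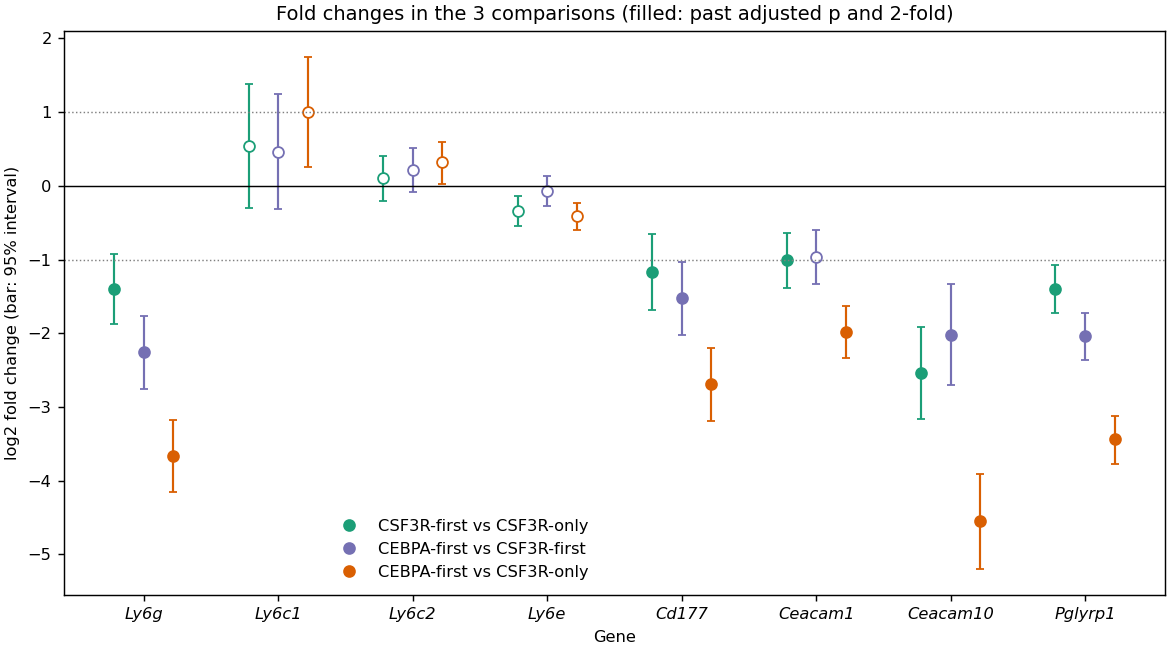
The log2 fold change of each of the 8 genes (vertical axis, with 95% intervals) is plotted for the 3 comparisons, and filled points passed both the adjusted p and the 2-fold limit, which dotted lines mark. Ly6g, Cd177, Ceacam1, Ceacam10 and Pglyrp1 lie below 0 in all 3 comparisons, Ceacam10 reaches -4.55, and the intervals of Ly6c1 and Ly6c2 include 0 in 2 of the 3.

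The place of CSF3R-first between the other groups was expressed on the log2 CPM scale, from 0 at the CSF3R-only mean to 1 at the CEBPA-first mean. It was 0.401 for Ly6g, 0.416 for Pglyrp1, 0.454 for Cd177, 0.528 for Ceacam1 and 0.585 for Ceacam10, close to midway in each. Single CSF3R-first libraries varied more than these means, from 0.24 in replicate A to 0.537 in replicate B for Ly6g and from 0.218 in replicate A to 0.595 in replicate B for Cd177. Ly6e was at 0.832 on average, but at 0.382 in replicate A, 1.2 in B and 0.911 in C. Ly6c2 had no stable place, at 1.49 in replicate A, -0.439 in B and -0.282 in C.

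The antigens of the Gr-1 antibody were then summed. Summed Ly6g, Ly6c1 and Ly6c2 levels were 279 ± 27.4, 269 ± 69.8 and 296 ± 28.9 CPM in the 3 groups. The sums were 311, 286, 245 and 275 CPM over the CSF3R-only libraries, 349, 223 and 234 CPM over CSF3R-first and 337, 281, 292 and 272 CPM over CEBPA-first, and the ranges overlapped in every pair of groups. Within this sum the makeup differed. Ly6g held 16.5 ± 1.68% of these counts in CSF3R-only (15.1% to 18.9%). Its share was 6.33 ± 0.981% in CSF3R-first (5.23% to 7.12%) and 1.23 ± 0.272% in CEBPA-first (0.963% to 1.61%). The shares did not overlap between groups, and almost all of the remainder was Ly6c2. These are shares of counts, and Ly6c2 has the longer exons. Per kilobase of exon, the Ly6g share was 36.4 ± 2.76%, 16.4 ± 2.28% and 3.5 ± 0.755% in the 3 groups, again without overlap. Neither share was tested, and both would be lower if reads shared by Ly6c1 and Ly6c2 had been left out and were added back.

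**Figure D3:**
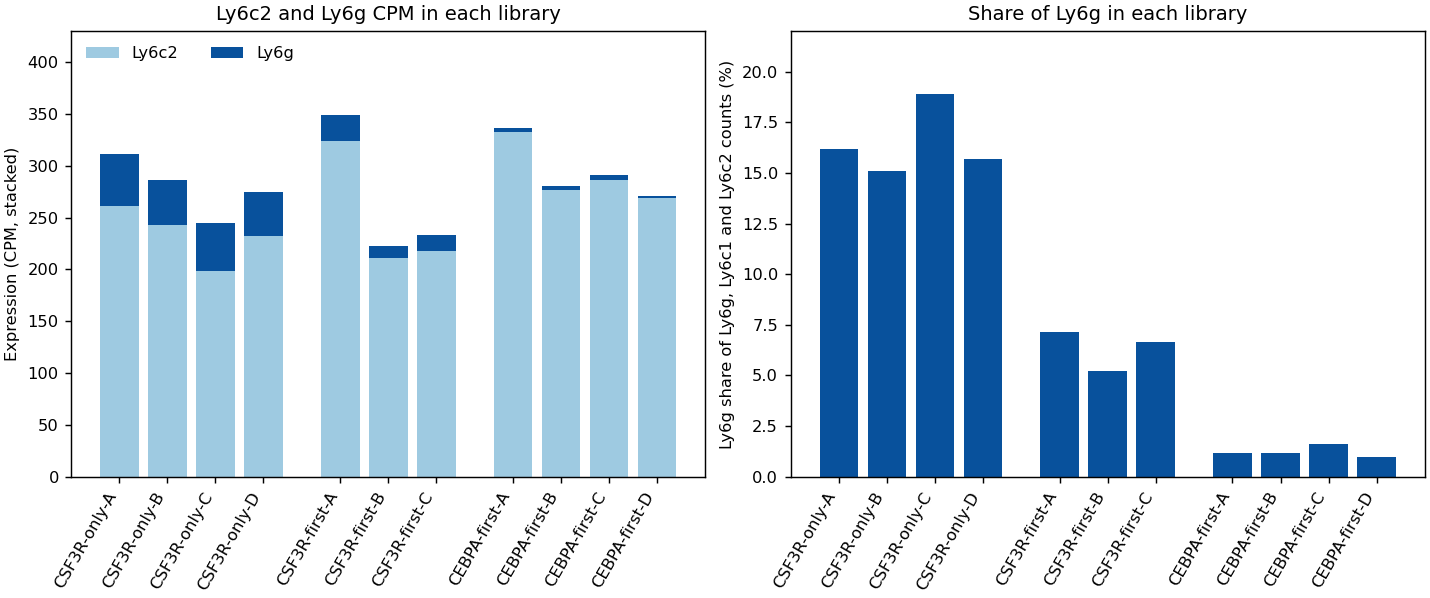
Stacked bars on the left give the CPM of Ly6c2 and Ly6g in each of the 11 libraries, with Ly6c1 left out because it is under 0.5 CPM throughout, and bars on the right give the percentage of Ly6g in the counts of Ly6g, Ly6c1 and Ly6c2. Bar heights on the left overlap between groups, whereas the Ly6g share is above 15% in each CSF3R-only library and at most 7.12% in CSF3R-first and 1.61% in CEBPA-first.

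Other genes of the same families and pathways were counted from 6 lists, given first for CEBPA-first against CSF3R-only. Each count is to be read against the shares of all tested genes, which were 19.0% lower and 8.07% higher there, 4.53% and 2.13% in CSF3R-first against CSF3R-only, and 10.3% and 2.57% between the orders. Of 40 listed Ly6/uPAR genes, 13 were tested, of which 7 were called lower and 1 higher (median log2 fold change -1.25), and without the genes described above 6 of 9 were lower and 1 higher. Ly6g6f, known as a platelet surface protein, was at 4.47 ± 1.1 CPM in CSF3R-only and 0.0832 ± 0.0533 in CEBPA-first (log2 fold change -5.8, SE 0.33, edgeR adjusted p = 1.3e-08). The fold rests on 19 counts over the CEBPA-first libraries against 944 over CSF3R-only, a ratio of 0.017 with a 95% counting interval of 0.0102 to 0.0267. Ly6i, a neighbour in the chromosome 15 cluster, went from 66.3 ± 9.09 to 2.67 ± 0.665 CPM (-4.63, SE 0.29, edgeR adjusted p = 2.7e-08). Lynx1, a modulator of nicotinic receptors, was the one called higher, at 0.291 ± 0.0773 against 0.734 ± 0.159 CPM (1.33, SE 0.26, edgeR adjusted p = 0.00043). In CSF3R-first against CSF3R-only, 5 of the 13 were lower and 0 higher, and between the orders 5 were lower and 1 higher.

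All 5 tested Ceacam genes of 15 listed were called lower (median -2.48), Ceacam10 and Ceacam1 among them. Ceacam19 was at 1.32 ± 0.352 CPM in CSF3R-only and 0.167 ± 0.0482 in CEBPA-first (-2.99, SE 0.49, edgeR adjusted p = 0.00011). Ceacam16 (-2.48) and Ceacam18 (-1.91) completed the list and were named after their values had been seen. In CSF3R-first against CSF3R-only, the 2 genes called lower were Ceacam1 and Ceacam10, and the change of Ceacam19 was -0.59 (SE 0.46, edgeR adjusted p = 0.33). Between the orders, 4 of the 5 were lower.

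Of 9 tested peptidoglycan sensing genes, Pglyrp1 among them, 8 were called lower and 0 higher (median -2.67), and in CSF3R-first against CSF3R-only 5 were lower. Without Treml1, 7 of 8 were lower (median -2.44), and 4 in CSF3R-first. Treml1, a receptor of platelet granules, was at 13.7 ± 1.78, 3.87 ± 0.884 and 0.303 ± 0.131 CPM (log2 fold change -5.49 in CEBPA-first against CSF3R-only, SE 0.24, edgeR adjusted p = 1.5e-09). Treml1 and Ly6g6f are platelet genes rather than neutrophil genes, and Treml1 is also one of the 10 megakaryocyte markers summed below.

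Of 12 genes for binding partners of the proteins, 5 were called lower and 3 higher (median -0.84). Trem1, among the lower, is in the peptidoglycan list too. Itgam, the CD11b chain of the integrin Mac-1, was at 450.1 ± 37.7, 211 ± 61.5 and 62.2 ± 12.5 CPM (-2.86 in CEBPA-first against CSF3R-only, SE 0.18, edgeR adjusted p = 2.3e-08). Trem1, a receptor for PGLYRP1, was at 164 ± 7.2, 78.2 ± 20 and 25.7 ± 5.31 CPM (-2.67, SE 0.16, edgeR adjusted p = 2.3e-08). The receptor and its ligand gene Pglyrp1 were thus lower together. Havcr2 (TIM-3), a CEACAM1 partner, was higher, at 5.71 ± 0.611, 7.99 ± 0.731 and 24.5 ± 1.31 CPM (2.1, SE 0.09, edgeR adjusted p = 1.6e-09). F2rl1 was called higher from 2 counts over the 4 CSF3R-only libraries, 3 of which had 0, against 99 counts over CEBPA-first, a ratio of 41.8 with a 95% counting interval of 11.3 to 350. It passed the filter on low counts through CEBPA-first, the group where it is high, and without it 2 were called higher. Named after their values had been seen, Itgb2 (-2.09), Tyrobp (-2.04) and Fcgr3 (-1.15) were the other genes called lower and Prtn3 (1.51), which encodes proteinase 3, the other called higher.

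Ly6 proteins and CD177 need the GPI anchor at the membrane. Of 28 tested genes for making and transferring it, 2 were called lower and 1 higher (median 0.17). By the adjusted p alone 5 were lower and 13 higher, where 72.0% of all tested genes passed it either way. Pgap1, which remodels the anchor lipid, went from 12.6 ± 3.77 to 1.69 ± 0.208 CPM (-2.89, SE 0.24, edgeR adjusted p = 2.7e-07) and Pigz from 0.678 ± 0.127 to 0.22 ± 0.0593 (-1.63, SE 0.29, edgeR adjusted p = 0.00023). Piga, of the first step of anchor synthesis, went up from 107 ± 8.01 to 281 ± 14.5 CPM (1.4, SE 0.07, edgeR adjusted p = 4.1e-09). Of 23 tested genes in the list of other neutrophil surface genes, 16 were called lower and 0 higher (median -1.92). Itgam and Itgb2 are counted among the binding partners too, and without them 14 of 21 were lower (median -1.83). The formyl peptide receptors led them, with Fpr1 at 557 ± 71.1, 167 ± 81.2 and 6.29 ± 1.12 CPM (-6.47, SE 0.28, edgeR adjusted p = 1.4e-09) and Fpr2 at 102 ± 9.76, 36.2 ± 17.4 and 2.99 ± 0.45 CPM (-5.1, SE 0.25, edgeR adjusted p = 3.4e-09). In CSF3R-first against CSF3R-only, 5 of the 23 were called lower, or 4 of 21 without Itgam and Itgb2.

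**Figure D4:**
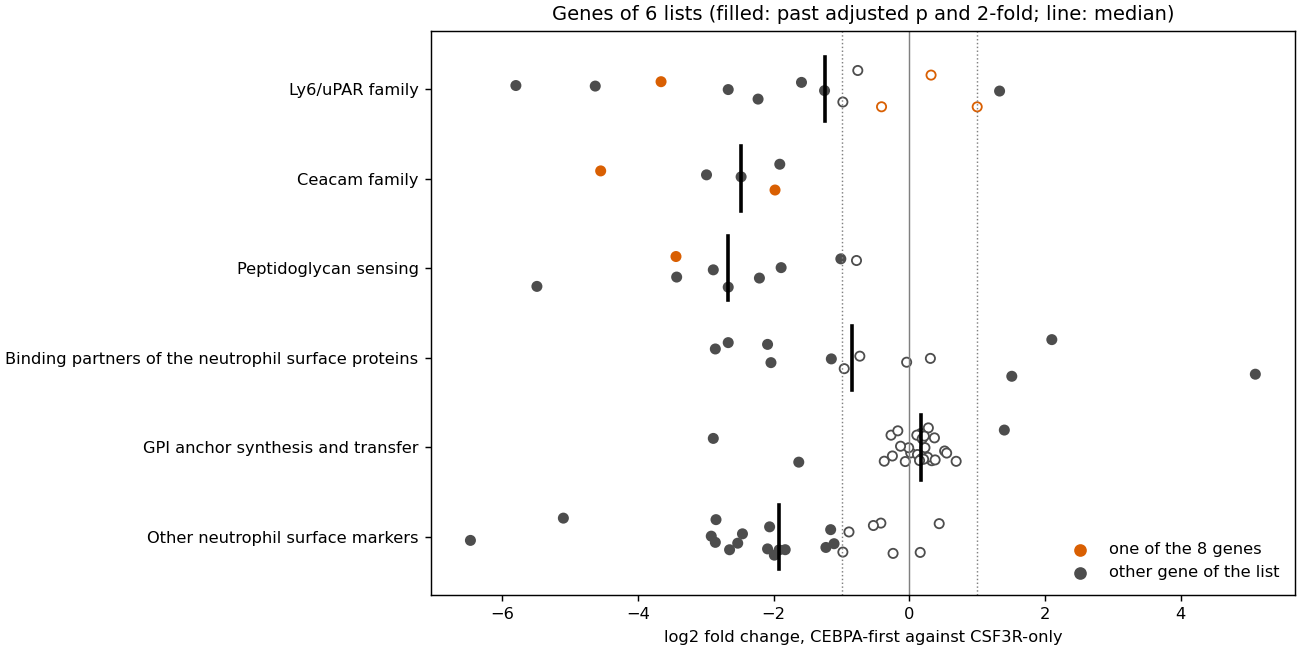
Each point is 1 tested gene of a list, placed by its log2 fold change in CEBPA-first against CSF3R-only (horizontal axis), with vertical position within a list carrying no meaning. Filled points passed the adjusted p and the 2-fold limit, black lines are medians and orange marks those of the 8 genes that a list holds, which leaves out Cd177. The Ceacam (median -2.48) and peptidoglycan (-2.67) lists lie left of 0 throughout, whereas the GPI anchor list centres on 0.17.

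The genes whose log2 CPM followed each of the 8 most closely over the 11 libraries were found by Pearson's r. The libraries form 3 groups, so a high r mostly shows a like order of group levels. Upp1, Grina and Klf2 followed Ly6g (r = 0.999 each), and S100a6, Stfa3 and Mpzl3 followed Pglyrp1 (r = 0.999 each). Cd177 was followed by Zfp710 (0.998), Sipa1 and Gas7 (0.997), Ceacam1 by Mrgpra2b (0.998), Aldh2 and Tfe3 (0.997), and Ceacam10 by Ngp (0.997), Rab3d and Cat (0.996). Ly6e was most like Ramac (0.98), Mettl7a1 (0.976) and Lpar6 (0.975). The values were lower for Ly6c2, with Dync2li1 (0.967), Serp1 (0.915) and Mpnd (0.911), and for Ly6c1, with Usp34 (0.891), Atxn7l2 (0.872) and Fam98b (0.868).

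Markers of cell types were summed beside these results. Counts of called marker genes are to be read against all tested genes, of which 19.0% were lower and 8.07% higher in CEBPA-first against CSF3R-only. Of 20 neutrophil granule genes, 14 were called lower and 4 higher in CEBPA-first against CSF3R-only, with sums of 32099 to 39317, 26009.6 to 40288 and 16964 to 21726 CPM in the libraries of the 3 groups, in the same order as above. The 4 called higher were Chil3 (means of 1167, 6957 and 5603 CPM) and the primary granule protease genes Elane (509.8, 797 and 1233), Prtn3 (454, 998 and 1292) and Ctsg (339 in CSF3R-only and 896 in CEBPA-first). Without Chil3 the sums were 31244 to 37861, 20093 to 31395 and 12769 to 14749 CPM. Of 19 monocyte and macrophage genes, 12 were lower and 1 higher, with overlapping sums of 6923 to 7576, 5253 to 8360.5 and 5475 to 7618 CPM. The 1 called higher was Ly86 (means of 2.28, 3.2 and 14.8 CPM). F13a1 (means of 2577, 3125 and 4007 CPM) and Emb (1126, 1331 and 1715) made up much of that sum. Their means were higher in CEBPA-first by less than 2-fold, so neither was called. Csf1r (1126, 589.6 and 223), Ccr2 (979, 680.3 and 372) and Adgre1 (392, 208 and 80.5) were lower. Other lineages moved too. Megakaryocyte genes were at 956 to 1294, 357 to 563 and 114 to 158 CPM (10 of 10 lower in CEBPA-first), erythroid genes at 539 to 853, 278 to 952 and 200.4 to 274 CPM (10 of 12 lower), and eosinophil genes at 250.1 to 379, 62 to 142 and 31.6 to 39.6 CPM (5 of 8 tested lower). Mast cell and basophil genes were at 2141 to 3151, 1335 to 1625 and 1379 to 1810.4 CPM (5 of 10 tested lower, 1 higher), and dendritic cell genes at 294 to 386, 153 to 267 and 90.2 to 142 CPM (5 of 8 lower, 1 higher).

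Endothelium also expresses Ly6c1, and 13 endothelial genes were at 213 to 244, 161 to 195 and 162 to 183 CPM (5 of 8 tested lower). Without Vwf, which the megakaryocyte list also holds, the sums were 146 to 155, 142 to 161 and 160.2 to 180.1 CPM, most of it Pecam1 (means of 129, 136 and 159 CPM). Cdh5, Emcn, Cldn5 and Sox17 had at most 2 counts in any library, but other genes of the list were counted at low levels. Means in the 3 groups were 3.24, 2.42 and 4.44 CPM for Kdr and 1.99, 1.22 and 2.1 for Tek. They were 6.51, 4.53 and 3.21 CPM for Eng and 5.14, 1.6 and 0.535 for Flt1. Tie1 was at 2.46, 1.07 and 0.129 CPM and Plvap at 2.22, 1.46 and 0.733. Stem and progenitor genes were at 838 to 1182, 697 to 818 and 782 to 855 CPM (7 of 15 lower, 4 higher). Lymphoid markers were scarce, at 5.03 to 5.62, 8.03 to 10.6 and 8.73 to 12.2 CPM for 10 B cell genes and at 1.81 to 2.64, 2.11 to 2.94 and 4.35 to 5.62 CPM for 11 T and NK cell genes, of which Cd3e, Cd8a, Cd8b1, Trbc2 and Ncr1 had no count in any library. No gene of the other marker lists was at 0 in all libraries. The part of these cell types in the changes of the 8 genes was not tested.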

How the data were processed

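The authors trimmed the reads (Trimmomatic), aligned them with STAR (mm10 per the submitters' processing notes) and deposited raw counts per Ensembl gene without normalization. Libraries were made with a SMARTer low-input kit and sequenced as 100 bp single reads. The counting tool, annotation and strand setting are not given in the sources used here. Of 51912 genes, 51633 had a symbol.

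After filterByExpr, 15703 genes were tested on TMM-scaled counts with the quasi-likelihood test of edgeR 4.0.16 (R 4.3.3), in a single fit of the 3 groups without covariates, with Benjamini-Hochberg adjustment over all tested genes. Standard errors are the log2 fold change over the square root of F, and 95% intervals use the fit's degrees of freedom. TMM also scaled the CPM, with a prior count of 2 on the log2 scale. A count of 0 allows up to 3 counts, or 0.0383 to 0.0648 CPM, for counting error only. The Ly6c1 to Ly6c2 ratio had 1 count added. Alternatives were DESeq2 1.42.0, RLE and upper-quartile factors, no filter, fits of only the groups compared, a replicate block, Ly6c1 and Ly6c2 summed, adjusted p alone, ratio pseudocounts of 0.5 and 5 and each sample left out. Near-identical stretches were searched with BLAST 2.17.0 on GENCODE transcripts, promoters were aligned with Biopython 1.88, and figures drawn with matplotlib 3.10.9.

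The 8 genes and all lists were chosen with earlier results of these data known. From each pathway list, up to 2 genes with the largest called change in each direction in CEBPA-first against CSF3R-only were named, and for each of the 8 genes the 3 tested genes with the highest r and an average log2 CPM of at least 1. No pair of replicates agreed within sampling noise. The labels do not say that replicates came from separate animals, so p-values measure the spread between these samples, which may be technical. The study's other experiments were not analysed here.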

Additional observations from a re-analysis of the deposited data

How the results depend on the processing

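Of 411 fold changes recomputed for the 8 genes, 399 kept their direction and their side of the adjusted p threshold. A further 8 no longer passed it, 2 newly passed it and 2 turned. Some of these fits left out a sample of the group not compared, which leaves the fold change almost as it was. The Ly6c1 to Ly6c2 ratio kept its sign in all 39 recomputed values. Some of these were fixed in advance, since leaving out a sample of the third group cannot change the difference between the other 2. The values say nothing of the threshold where a sample left out made the design too small to pass it. With the adjusted p alone, all 8 genes counted as changed in CEBPA-first against CSF3R-only rather than 5. With no filter on low counts, or with only the 2 groups in the fit, 4 genes were called in CSF3R-first against CSF3R-only. With each sample left out, 3 to 5 genes were called in CSF3R-first against CSF3R-only and 5 to 6 in CEBPA-first against CSF3R-only, where Ly6c1 crossed 2-fold. The log2 fold change of Ly6c2 in CSF3R-first against CSF3R-only ranged from -0.12 to 0.22 with samples left out, and that of Ly6e between the orders from -0.14 to 0.03. Both turned without CSF3R-first replicate A, by the removal of the highest of 3 libraries.

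With the replicate letter as a block, 6, 5 and 4 genes were called in CEBPA-first against CSF3R-only, in CSF3R-first against CSF3R-only and between the orders, and Ly6c2 passed the adjusted p between the orders (0.25, edgeR adjusted p = 0.041, against a range of 0.0063 to 0.59 over its alternatives). Same-lettered samples correlated at -0.107 to 0.362 in their deviations from group means, not over 0.1 in every pair, and not every sample correlated best with its own letter, so the letters were not taken as pairs. Depth limits Ly6c1, with 4 to 29 counts per library, and Ceacam10 in CEBPA-first.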

Other observations

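Along the Ly6 cluster of chromosome 15, neighbouring genes had log2 fold changes of either sign. In order of position, the log2 fold change in CEBPA-first against CSF3R-only was -0.41 for Ly6e, -4.63 for Ly6i, -2.67 for Ly6a, 1 for Ly6c1, 0.32 for Ly6c2 and -3.66 for Ly6g. Ly6a, the stem cell antigen Sca-1, was at 402 ± 91.5, 209 ± 26 and 63.2 ± 11.7 CPM (mean ± SD in CSF3R-only, then CSF3R-first, then CEBPA-first, edgeR adjusted p = 3.7e-08 for CEBPA-first against CSF3R-only), and it was picked as a neighbour after its values had been seen. Ly6i and Ly6a are 11.4 kb apart, and Ly6c1 lies 46 kb beyond Ly6a. Of these changes, those of Ly6i, Ly6a and Ly6g passed the 2-fold limit.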
